A study of Mus musculus with 7 samples.

Results

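The genes described here are 29 genes of cholesterol homeostasis: 18 enzymes of cholesterol synthesis, 7 genes of regulation and uptake, and 4 genes of efflux. They were picked by name, with earlier results of these data known. Each listed symbol was found among the 21755 gene symbols of the deposited table. The gene listed as Sc4mol is an older symbol of Msmo1. For the 3 members with 2 probe sets (Idi1, Fdft1 and Scap) the set with the highest mean over the 7 arrays was taken. All 29 lay among the 13053 genes kept after leaving out the dimmest 40%, whose limit was a mean of 6.07 log2.

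Transcripts were measured by array in Langerhans cells (LC), the dendritic cells that live in the epidermis, sorted by flow cytometry from adult wild-type C57:Bl6 mice. There were 3 irradiated samples, from mice pretreated with 12 Gy of ionizing radiation, and 4 control samples, from naive mice. The labels state no further allele or agent in either group, and neither the time after irradiation nor the sex of the mice. According to the series' design text, sorted cells were pooled for each sample. The labels do not state that samples within a group derive from different mice, so p-values reflect only how these samples varied, and that variation may be technical. An earlier record is cited in the labels of control replicates 1 and 4 and of no other sample.

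Cells make cholesterol from acetyl-CoA through mevalonate, farnesyl diphosphate, squalene and lanosterol. When sterol in the endoplasmic reticulum runs low, Scap carries the SREBP transcription factors (Srebf1, Srebf2) to the Golgi, where they are cut and released to switch on the synthesis and uptake genes; Insig proteins hold them back when sterol is plentiful. A surplus instead feeds oxysterols to the liver X receptors (Nr1h2, Nr1h3), which raise the cholesterol exporters Abca1 and Abcg1 and Mylip, a ubiquitin ligase that lowers uptake of lipoprotein. Keratinocytes, the neighbours of LC in the epidermis, make much cholesterol for the skin barrier, and macrophages express the exporters strongly.

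The library labelled irradiated replicate 1 went against its label. Cd207, which encodes langerin and defines LC, had log2 intensities of 5.64, 12.35 and 11.86 in the 3 irradiated samples, against 11.49, 10.96, 8.85 and 8.91 log2 in control replicates 1 to 4. Summed over the 8 LC markers, the intensity was 1390 in that library, 45723 and 46374 in irradiated replicates 2 and 3, and 32060 to 40832 in controls. Its fibroblast sum over 7 markers was 22749 (4185 and 1052 in the other irradiated samples, 1600 to 7470 in controls), its keratinocyte sum over 10 markers 16759 (6794 and 5232, and 2384 to 11283), and its erythroid sum over 4 markers 20771 (1171 and 260, and 387 to 1053). Itgax, an integrin gene of dendritic cells and 1 of the 8 LC markers, was at 6.36, 8.93 and 9.33 log2 in irradiated samples, against 10.17 to 10.34 log2 in controls. With that library left out Itgax fell by 1.14 log2 (limma, adjusted p = 0.0247), and with it the change was -2.06 (adjusted p = 0.149). Itgax was the 1 cell type marker of 38 tested that passed there, where 3.06% of all genes fell and 1.58% rose. Cd3e, a T cell receptor component, was at 6.78, 7.30 and 8.71 log2 in irradiated samples, against 6.17 to 6.67 log2 in controls (1.62 with that library left out, adjusted p = 0.0528). Without that library Cd207 (2.06, adjusted p = 0.188), H2-Aa, H2-Ab1 and Cd3g were also higher in irradiated samples than in any control. Krt1 was below every control there (-2.38, adjusted p = 0.117), and apart from Itgax the remaining cell type markers overlapped. Over all genes tested, 10.2% lay above all controls and 20.3% below them in that comparison. No marker is listed at 0, since the lowest intensity of an array was 3.99 to 4.44. The groups also differed in sex-linked RNA: Xist, expressed from the inactive X of female cells, was at 5.31 to 5.93 log2 in irradiated samples, against 10.94 to 11.71 log2 in controls, and the Y-linked Ddx3y at 6.67 to 8.71 log2 against 4.35 to 5.45 log2. Sex-linked RNA and irradiation cannot be told apart in this design. Gene results below are therefore set out both with that library and with it left out.

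RefSeq promoter windows of GRCm38.p6, covering 250 bases before to 50 after a transcription start, existed for 24 of the 29 members. The windows below belong to Nsdhl and Ebp, which fell in at least 1 comparison, Pmvk, which rose in 1, and Hmgcs1, the one synthesis gene whose window holds the letters TCACNCCAC, a form of the sterol regulatory element to which SREBP binds. Capitals mark CCAAT, the site type of the SREBP partner NF-Y, and TCACNCCAC, each on either strand, so that ATTGG is CCAAT read from the other strand.
Nsdhl (chrX:72918271-72918570, + strand): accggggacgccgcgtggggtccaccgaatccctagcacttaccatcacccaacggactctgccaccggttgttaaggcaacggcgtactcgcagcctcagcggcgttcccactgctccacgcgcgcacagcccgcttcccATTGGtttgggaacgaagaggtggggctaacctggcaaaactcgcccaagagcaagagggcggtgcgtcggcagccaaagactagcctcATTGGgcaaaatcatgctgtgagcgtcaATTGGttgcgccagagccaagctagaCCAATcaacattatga
Ebp (chrX:8193463-8193762, - strand): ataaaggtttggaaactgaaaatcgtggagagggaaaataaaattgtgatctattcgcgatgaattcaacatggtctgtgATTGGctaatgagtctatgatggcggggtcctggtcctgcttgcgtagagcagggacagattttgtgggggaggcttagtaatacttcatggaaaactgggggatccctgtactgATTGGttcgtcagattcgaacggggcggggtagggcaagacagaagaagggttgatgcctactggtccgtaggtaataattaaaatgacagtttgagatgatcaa
Pmvk (chr3:89454291-89454590, + strand, the first of 2 windows listed): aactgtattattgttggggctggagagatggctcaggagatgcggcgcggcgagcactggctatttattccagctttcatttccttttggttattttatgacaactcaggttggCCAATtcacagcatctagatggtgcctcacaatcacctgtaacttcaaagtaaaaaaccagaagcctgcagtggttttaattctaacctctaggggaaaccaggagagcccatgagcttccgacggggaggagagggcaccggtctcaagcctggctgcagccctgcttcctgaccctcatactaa
Hmgcs1 (chr13:119690101-119690400, + strand): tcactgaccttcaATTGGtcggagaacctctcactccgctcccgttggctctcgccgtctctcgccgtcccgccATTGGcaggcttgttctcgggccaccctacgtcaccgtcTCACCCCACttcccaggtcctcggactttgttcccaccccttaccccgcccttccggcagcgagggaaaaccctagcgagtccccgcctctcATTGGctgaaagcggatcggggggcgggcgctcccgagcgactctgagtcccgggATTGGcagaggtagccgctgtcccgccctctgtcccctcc
The Nsdhl window holds 4 CCAAT boxes, the Ebp window 2, the Pmvk window 1 and the Hmgcs1 window 4. Among the 15 synthesis genes with a window, 14 held CCAAT (93.3%) and 14 the GC box GGGCGG (93.3%), against 41.1% and 38.2% of the 27025 genes with a window. TCACNCCAC was found in 1 of these 15 genes (6.67%), and in 1.44% of all genes. CCAAT was found in 5 of 6 regulator and uptake genes (Insig1, Insig2, Mylip, Srebf1 and Srebf2) and in 0 of 3 efflux genes with a window. These matches describe letters in the windows and were not linked to binding.

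Most synthesis genes had a lower mean in samples labelled irradiated than in control LC, both with and without the library that lacks LC markers. Their median log2 fold change (irradiated minus control) was -0.51 with all 7 arrays and -0.50 without the library labelled irradiated replicate 1, against -0.05 over all genes tested in both comparisons. The fold change was below 0 in 16 of 18 genes (55.0% of all genes) and in 17 of 18 without that library (56.4% of all genes). Because the members were chosen with earlier results of these data known, such contrasts with all genes are a description and not a test. Gene by gene few passed. The test was limma with Benjamini-Hochberg adjustment over all 13053 genes and a threshold of 0.05. With all 7 arrays 1 of 18 synthesis genes fell and 0 rose, where 1.56% of all genes fell and 0.115% rose. At an unadjusted p under 0.05, 8 were lower and 0 higher (16.1% and 3.60% of all genes). Without the library labelled irradiated replicate 1, 4 fell and 1 rose, where 3.06% of all genes fell and 1.58% rose, and 9 were lower and 1 higher at an unadjusted p under 0.05 (15.1% and 6.56% of all genes). Itgax fell in the same comparison and Cd207 lay above all controls there, and the part of these differences was not tested. The keratinocyte sum was above all controls in the library labelled irradiated replicate 1 and inside their range in irradiated replicates 2 and 3. Single keratinocyte markers differed in direction, and 0 of 9 tested passed in limma. Krt1 was below all controls in every irradiated sample (-1.99, adjusted p = 0.177). Krt15 had 1.38 (adjusted p = 0.207) and Dsg3 1.39 (adjusted p = 0.165) with all arrays. Such markers were not modelled, and their part in these levels was not tested. In samples of sorted cells, fewer cells of a type and less RNA per cell cannot be told apart.

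**Figure D1:**
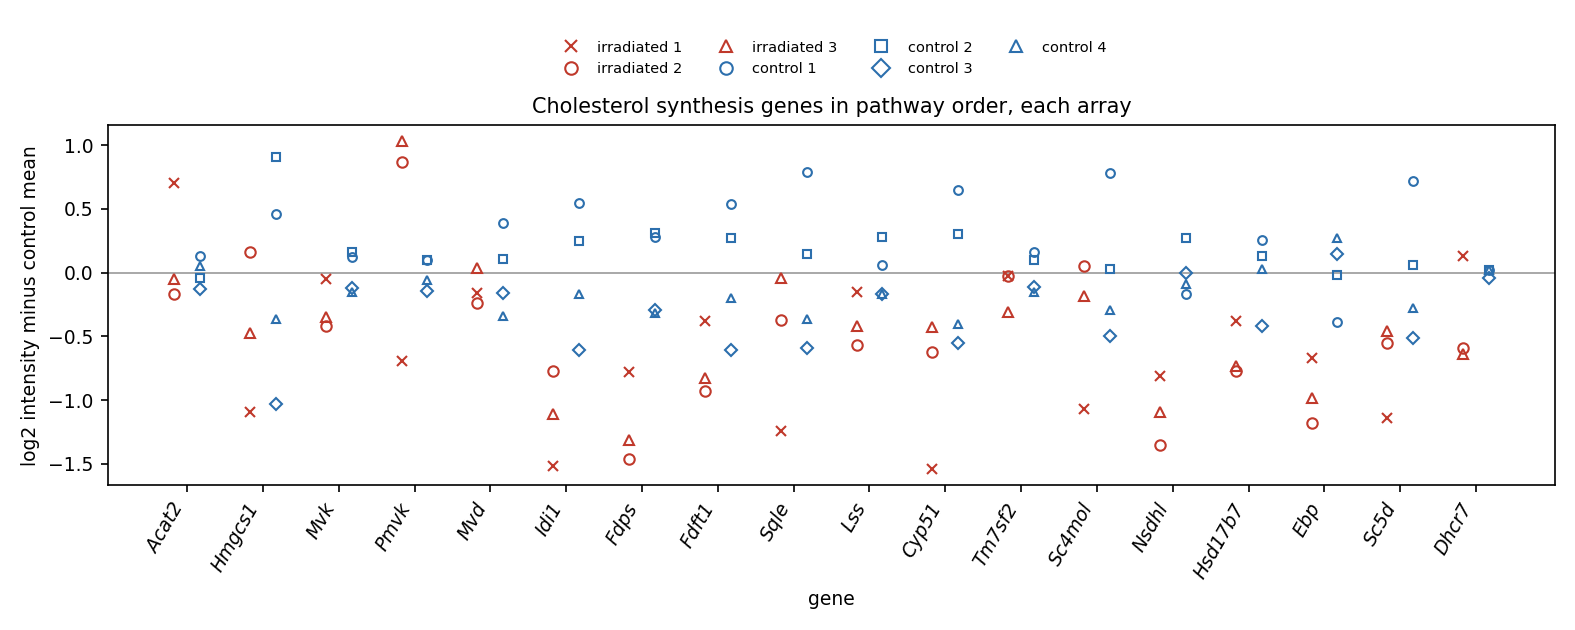
Log2 intensity of each synthesis gene minus its control mean (vertical axis), in the order of the pathway (horizontal axis), with the 3 irradiated samples in red left of the 4 controls in blue. Idi1, Fdps, Nsdhl and Ebp are the 4 genes in which all irradiated samples lie below all controls, and Pmvk has irradiated replicates 2 and 3 above every control.

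The mevalonate steps did not all differ in the same direction. Hmgcs1 encodes the synthase that makes HMG-CoA in the cytosol. It had 8.12, 9.37 and 8.74 log2 in irradiated replicates 1 to 3, against 9.67, 10.12, 8.18 and 8.85 log2 in control replicates 1 to 4. The controls alone spanned 1.93 log2, so the groups overlapped, and the log2 fold change of -0.46 (SE 0.51) did not pass (adjusted p = 0.625; -0.15 and 0.914 when the library labelled irradiated replicate 1 was dropped). Pmvk, the kinase that adds a second phosphate to mevalonate, was at 6.10, 7.66 and 7.82 log2 in irradiated samples, against 6.89, 6.89, 6.65 and 6.73 log2 in controls. Irradiated replicates 2 and 3 lay above the controls and the library labelled irradiated replicate 1 below them. With all arrays its log2 fold change was 0.41 (adjusted p = 0.568), and without that library Pmvk rose by 0.95 log2 (SE 0.14, 1.94-fold, adjusted p = 0.0169). It was the 1 synthesis gene that rose in that comparison.

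Mvk, the kinase before it, had a log2 fold change of -0.28 (adjusted p = 0.387), and -0.39 without that library (adjusted p = 0.208). Mvd, which decarboxylates the product of Pmvk, stood at -0.12 (95% interval -0.56 to 0.32), and at -0.10 without that library. Acat2, a thiolase at the start of the pathway, was at 0.15 (adjusted p = 0.699) and at -0.12 without that library, in which it was higher, at 7.46 log2, than in any other sample. Acat2 has a close copy in mouse, Acat3, so its signal is uncertain.

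At the farnesyl and squalene steps Fdps fell once the library labelled irradiated replicate 1 was left out, and no other gene passed. Idi1 encodes the isomerase that supplies dimethylallyl diphosphate. Its levels were 6.58, 7.33 and 6.99 log2 in irradiated samples, against 8.65, 8.35, 7.49 and 7.93 log2 in controls. All irradiated samples lay below all controls, and the log2 fold change was -1.14 (SE 0.31, adjusted p = 0.111); the second probe set gave -1.19. Dropping the library labelled irradiated replicate 1 left Idi1 at -0.94 (adjusted p = 0.148). Fdps, which joins these units into farnesyl diphosphate, the branch point to sterols and prenylated proteins, was at 6.70, 6.02 and 6.17 log2 in irradiated samples, against 7.76, 7.79, 7.19 and 7.16 log2 in controls. Again the groups did not overlap. The log2 fold change of -1.18 (SE 0.24) missed the threshold with all arrays (adjusted p = 0.0561), and without the library labelled irradiated replicate 1 Fdps fell by 1.38 log2 (SE 0.23, 0.384 of the control level, adjusted p = 0.0232). The irradiated mean of Fdps, 6.30 log2, lay near the 6.07 log2 limit for dim genes. In the comparison where Fdps passed, the irradiated mean was 6.09 log2, and irradiated replicate 2, at 6.02 log2, lay below that limit.

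Fdft1, the squalene synthase and first enzyme committed to sterols, was at 7.90, 7.35 and 7.45 log2 in irradiated samples, against 8.82, 8.55, 7.67 and 8.08 log2 in controls. Irradiated replicates 2 and 3 were below every control, and the library labelled irradiated replicate 1 was not. Its log2 fold change was -0.71 (adjusted p = 0.249) and -0.88 without that library (adjusted p = 0.169). For Sqle, the squalene epoxidase and a rate-limiting step, the levels were 6.68, 7.55 and 7.88 log2 in irradiated samples, against 8.71, 8.07, 7.33 and 7.56 log2 in controls. Here the library labelled irradiated replicate 1 was the low sample and the other irradiated samples lay within the controls, so that the log2 fold change was -0.55 (adjusted p = 0.474) with it and -0.20 (adjusted p = 0.828) without it. Lss, which folds squalene epoxide into lanosterol, had -0.38 (adjusted p = 0.250) and -0.49 (adjusted p = 0.137).

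Among the enzymes that turn lanosterol into cholesterol, Nsdhl fell in both comparisons, and Ebp and Dhcr7 fell without the library labelled irradiated replicate 1. Nsdhl, a dehydrogenase of the demethylation complex, had 7.30, 6.76 and 7.02 log2 in irradiated samples, against 7.94, 8.38, 8.11 and 8.02 log2 in controls. Every irradiated sample was below every control. Nsdhl fell by 1.09 log2 (SE 0.19, 0.470 of the control level, adjusted p = 0.0376), and by 1.23 log2 without the library labelled irradiated replicate 1 (SE 0.18, adjusted p = 0.0177). It is the 1 member that passed with all 7 arrays. This call was lost without any 1 of irradiated replicates 2 or 3 or control replicates 2, 3 or 4 (log2 fold change -0.96 to -1.12, adjusted p up to 0.177).

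Ebp encodes the isomerase that moves the double bond of the sterol ring. Its levels were 6.85, 6.34 and 6.54 log2 in irradiated samples, against 7.13, 7.50, 7.67 and 7.79 log2 in controls. The groups did not overlap, and the log2 fold change was -0.94 (SE 0.20, adjusted p = 0.0614). Ebp fell by 1.08 log2 once the library labelled irradiated replicate 1 was left out (SE 0.20, adjusted p = 0.0347), and also passed without control replicate 1 (-1.08, adjusted p = 0.04). Nsdhl and Ebp are the 2 members on chromosome X. Of the 332 X-linked genes tested, 1.20% fell and in 20.8% all irradiated samples lay below all controls, against 1.56% and 15.3% of all genes, and their median log2 fold change was -0.14. Without the library labelled irradiated replicate 1, 2.41% of X-linked genes fell and 25.3% lay below all controls. The part of the X chromosome in the change of these 2 genes was not tested.

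Hsd17b7, a ketosteroid reductase that acts with Nsdhl, was at 6.81, 6.42 and 6.46 log2 in irradiated samples, against 7.45, 7.32, 6.77 and 7.22 log2 in controls. Only the library labelled irradiated replicate 1 reached into the control range, by a margin of 0.04 log2 over control replicate 3. Its log2 fold change was -0.63 (SE 0.19, adjusted p = 0.136), and -0.75 without that library (adjusted p = 0.0842). Dhcr7, the reductase of the last step, was at 7.35, 6.63 and 6.58 log2 in irradiated samples, against 7.24, 7.24, 7.18 and 7.24 log2 in controls. Irradiated replicates 2 and 3 were low and the library labelled irradiated replicate 1 was the highest sample. Dhcr7 did not pass with all arrays (-0.37, adjusted p = 0.335) and fell by 0.62 log2 without that library (SE 0.11, adjusted p = 0.0327). Control replicates 1, 2 and 4 hold an identical deposited value for Dhcr7, so that its control SD of 0.03 log2 rests on tied values.

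In the other late enzymes the groups overlapped. Cyp51, the lanosterol demethylase, was at 5.93, 6.85 and 7.04 log2 in irradiated samples, against 8.12, 7.77, 6.92 and 7.07 log2 in controls (log2 fold change -0.87, adjusted p = 0.249; -0.53 when the library labelled irradiated replicate 1 was dropped). Sc5d, a sterol desaturase, was at 7.03, 7.62 and 7.71 log2 in irradiated samples, against 8.89, 8.23, 7.66 and 7.89 log2 in controls (-0.71, adjusted p = 0.274; -0.50 without that library). In both, control replicates 3 and 4 lay close to irradiated replicates 2 and 3. Sc4mol, the methyl sterol oxidase, had a log2 fold change of -0.40 (95% interval -1.30 to 0.49), and -0.07 without that library. Tm7sf2, a sterol reductase, had -0.12 (95% interval -0.43 to 0.18), and -0.17 without it.

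All irradiated samples were below all controls in 4 of 18 synthesis genes (Idi1, Fdps, Nsdhl and Ebp), a share of 22.2% where all genes gave 15.3%, and above them in 0 (3.46% of all genes). Without the library labelled irradiated replicate 1, 9 of 18 were below, where all genes gave 20.3%, and 1 above, where all genes gave 10.2%. The 9 were Mvk, Idi1, Fdps, Fdft1, Lss, Nsdhl, Hsd17b7, Ebp and Dhcr7. Among them Lss passed the filter for dim genes only through its controls.

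**Figure D2:**
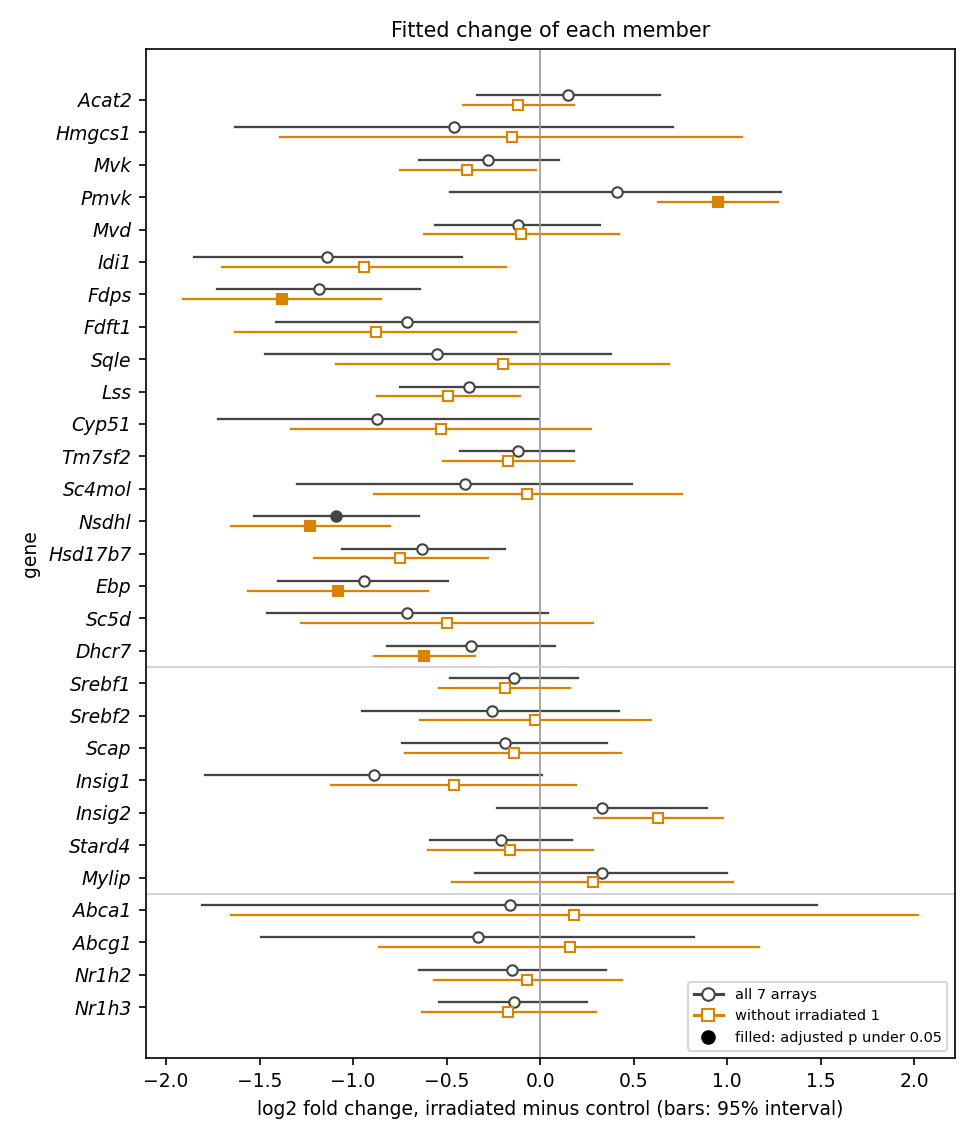
Fitted log2 fold change, irradiated minus control (horizontal axis), of the 29 members (vertical axis; lines part synthesis, regulators and uptake, and efflux) with all 7 arrays and without the library labelled irradiated replicate 1; bars are 95% intervals and filled symbols have an adjusted p under 0.05. Nsdhl is filled with all arrays, and Pmvk, Fdps, Nsdhl, Ebp and Dhcr7 without that library.

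The regulator and uptake genes did not pass in either comparison. With all arrays 0 of 7 fell and 0 rose in limma, where 1.56% and 0.115% of all genes did. At an unadjusted p under 0.05 there were also 0 (16.1% of all genes lower and 3.60% higher). Their median log2 fold change was -0.19, against -0.05 over all genes. Without the library labelled irradiated replicate 1 the median was -0.14 (-0.05 over all genes). Again 0 of 7 passed, where 3.06% of all genes fell and 1.58% rose. There 0 were lower and 1 higher at an unadjusted p under 0.05 (15.1% and 6.56% of all genes). Srebf2, the gene of the SREBP that drives cholesterol synthesis, was at 8.56, 9.06 and 9.47 log2 in irradiated samples, against 9.19, 9.77, 9.13 and 9.06 log2 in controls. The groups overlapped (log2 fold change -0.26, adjusted p = 0.638; -0.03 without that library, 95% interval -0.64 to 0.59). Srebf1, whose products drive mainly fatty acid genes, Scap, the SREBP escort, and Stard4, a cytosolic sterol carrier, had log2 fold changes between -0.21 and -0.14 (adjusted p 0.507 to 0.674), and between -0.19 and -0.14 without that library.

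The retention factors Insig1 and Insig2 differed in sign. Insig1, itself a target of SREBP, was at 7.74, 9.06 and 8.99 log2 in irradiated samples, against 9.77, 9.90, 9.05 and 9.26 log2 in controls. The library labelled irradiated replicate 1 was lowest, and irradiated replicate 2 lay just above the lowest control. Its log2 fold change was -0.89 (SE 0.39, adjusted p = 0.258), and -0.46 without that library (adjusted p = 0.399). Insig2, its paralog, was at 6.75, 7.56 and 7.77 log2 in irradiated samples, against 6.93, 7.07, 6.93 and 7.20 log2 in controls. Irradiated replicates 2 and 3 were above every control and the library labelled irradiated replicate 1 below. The log2 fold change was 0.33 (adjusted p = 0.477), and 0.63 without that library (SE 0.15, adjusted p = 0.0594), short of the threshold. Whether Insig1 and Insig2 differ in their change was not tested.

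Mylip, the ligase that marks lipoprotein receptors for breakdown, was at 8.76, 8.26 and 8.98 log2 in irradiated samples, against 7.81, 8.23, 8.63 and 8.71 log2 in controls (log2 fold change 0.33, SE 0.29, adjusted p = 0.551; 0.28 when the library labelled irradiated replicate 1 was dropped). The groups overlapped.

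**Figure D3:**
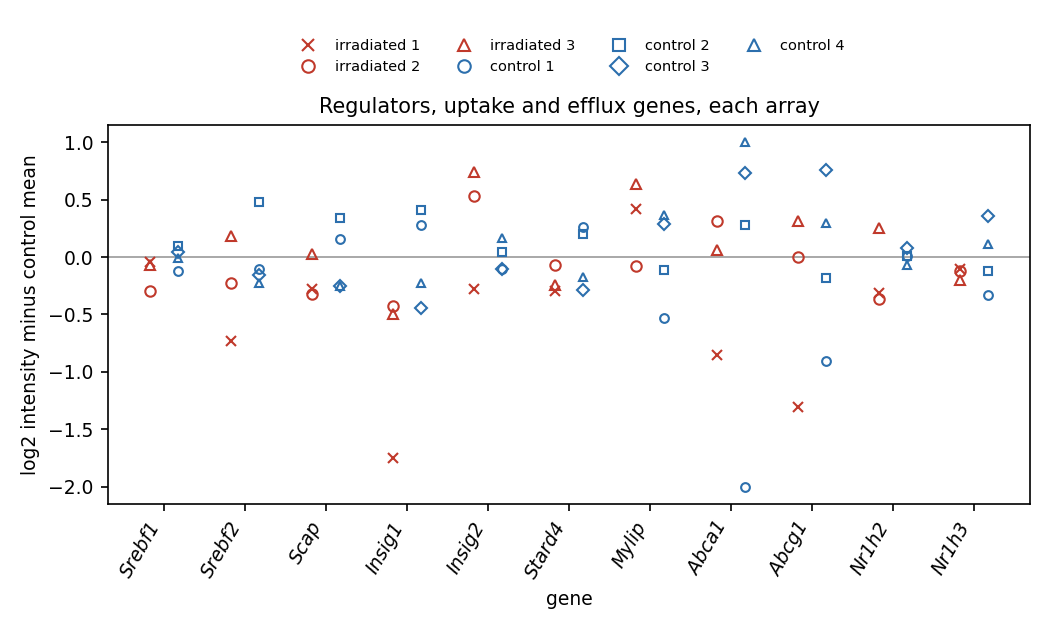
Log2 intensity of the 7 regulator and uptake genes and the 4 efflux genes minus their control means (vertical axis) by gene (horizontal axis), with the 3 irradiated samples in red left of the 4 controls in blue. Insig2 has irradiated replicates 2 and 3 above the controls, and Abca1 has control replicate 1 far below the other controls.

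The efflux genes did not separate the groups. With all arrays 0 of 4 passed in limma, where 1.56% of all genes fell and 0.115% rose. Their median log2 fold change was -0.16, against -0.05 over all genes. Without the library labelled irradiated replicate 1 again 0 of 4 passed, where 3.06% of all genes fell and 1.58% rose. The median there was 0.05 (-0.05 over all genes). At an unadjusted p under 0.05 there were also 0 in both comparisons. Over all genes 16.1% were lower and 3.60% higher at that level with all arrays, and 15.1% and 6.56% without that library. Abca1, the exporter that loads cholesterol onto apolipoproteins, was at 7.95, 9.11 and 8.86 log2 in irradiated samples, against 6.80, 9.08, 9.53 and 9.80 log2 in controls. Its spread among controls, 3.00 log2, was the widest of the 29 members, and its log2 fold change of -0.16 had a 95% interval of -1.81 to 1.48 (0.18 without that library, adjusted p = 0.933). Abcg1, which passes cholesterol to mature lipoprotein particles, ran between 7.11 and 8.73 log2 in irradiated samples, against 7.51 to 9.18 log2 in controls (-0.33, 95% interval -1.49 to 0.82; 0.16 without that library). The receptor genes Nr1h2 and Nr1h3 had log2 fold changes of -0.15 and -0.14 (adjusted p = 0.715 and 0.651), and of -0.07 and -0.17 without that library.

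Markers of monocytes and macrophages varied across the same samples as Abca1 and Abcg1. The summed intensity over these 6 markers was 1016, 8361 and 8606 in irradiated samples, against 2342, 7348, 14238 and 11236 in controls. Lyz2, the lysozyme gene of myeloid cells, was at 8.70, 11.93 and 12.06 log2 in irradiated samples, against 8.41, 11.65, 12.79 and 12.29 log2 in controls. The library labelled irradiated replicate 1 and control replicate 1 were lowest in Abca1, in Abcg1 and in these markers. The part of such cells in the level of the exporters was not tested.

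Control LC differed among themselves in these genes. With ties left uncounted, control replicate 1 was the highest control in 11 of 18 synthesis genes (61.1%, against 35.3% of all genes tested), and control replicate 3 the lowest in 11 of 18 (61.1%, against 23.3%). In efflux genes control replicate 3 was the highest control in 3 of 4 (22.5% of all genes tested) and control replicate 1 the lowest in 3 of 4 (38.6%). The synthesis median relative to the control mean was 0.27, 0.15, -0.23 and -0.17 log2 in control replicates 1 to 4, and the efflux median -0.62, -0.06, 0.54 and 0.21 log2. Over these 4 controls the order of the efflux medians was the reverse of that of the synthesis medians, which is a description with no test. Irradiated replicates 1, 2 and 3 had synthesis medians of -0.68, -0.56 and -0.44 log2, below all controls, and efflux medians of -0.59, -0.06 and 0.15 log2, within the controls. Against only control replicates 2 and 3, which cite no earlier record, the synthesis median was -0.42 (-0.06 over all genes). In that fit 0 of 18 synthesis genes passed in limma, where 1 of all 13053 genes fell and 0 rose.

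**Figure D4:**
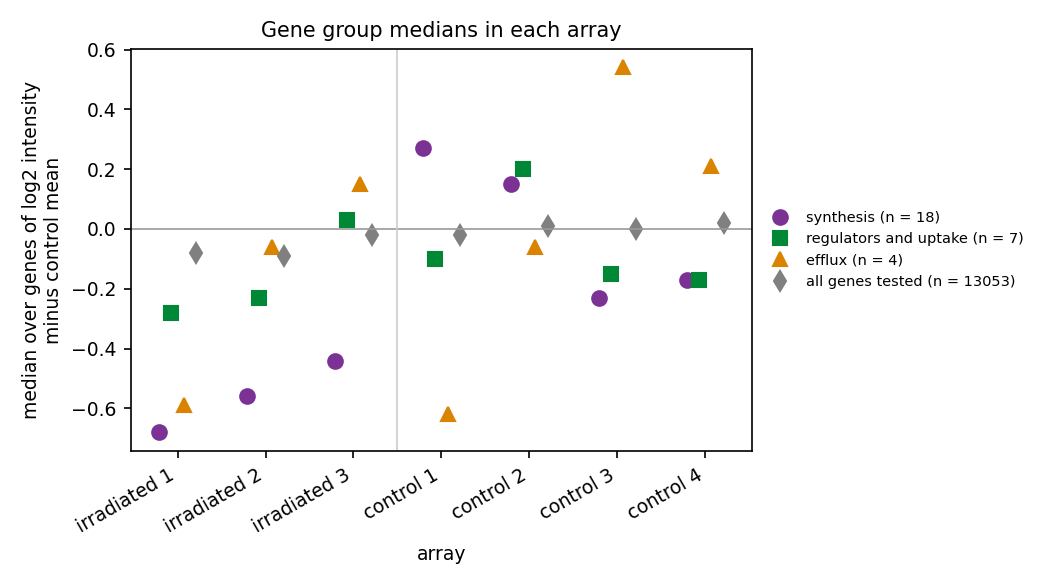
Median over genes of log2 intensity minus the control mean (vertical axis) in each array (horizontal axis, the 3 irradiated samples left of the 4 controls) for the 3 gene groups and all genes tested. Synthesis medians of irradiated samples (-0.68 to -0.44) lie below those of controls (-0.23 to 0.27), while efflux medians run from -0.62 to 0.54 in controls.

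Other genes of sterol and fatty acid metabolism were counted in 5 further lists with 48 genes, of which 45 were tested. With all arrays 1 of the 45 fell and 0 rose, where 1.56% and 0.115% of all genes did, and the median log2 fold change was -0.31. Without the library labelled irradiated replicate 1, 3 fell and 2 rose, where 3.06% and 1.58% of all genes did, with a median of -0.34. The count with all arrays is near the background. The gene that fell in both comparisons was Tmem97, a SREBP target whose product binds sterols and takes part in cholesterol transport. It was at 7.33, 7.08 and 7.11 log2 in irradiated samples, against 8.59, 8.55, 8.28 and 8.29 log2 in controls. All 3 irradiated samples, the library labelled irradiated replicate 1 included, lay at least 0.95 log2 below the lowest control. Tmem97 fell by 1.25 log2 (SE 0.17, adjusted p = 0.0166), and by 1.33 log2 without that library (adjusted p = 0.0116). Its call was lost without irradiated replicate 2 or 3 or control replicate 2, 3 or 4 (log2 fold change -1.30 to -1.20, adjusted p 0.06 to 0.118).

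Of 11 fatty acid genes activated by SREBP, 0 passed in limma with all arrays, where 1.56% of all genes fell and 0.115% rose. At an unadjusted p under 0.05, 4 were lower and 0 higher (16.1% and 3.60% of all genes), with a median of -0.37. Without the library labelled irradiated replicate 1, 1 fell and 1 rose (3.06% and 1.58% of all genes). There 7 were lower and 1 higher at an unadjusted p under 0.05 (15.1% and 6.56% of all genes), with a median of -0.66. Scd2, a stearoyl-CoA desaturase, was at 8.66, 7.08 and 7.82 log2 in irradiated samples, against 9.40, 9.70, 9.35 and 9.63 log2 in controls. The groups did not overlap, and Scd2 fell by 2.07 log2 without that library (SE 0.25, adjusted p = 0.0109; -1.66 and adjusted p = 0.0663 with it). Elovl5, an elongase of polyunsaturated fatty acids, was at 7.91, 10.62 and 10.61 log2 in irradiated samples, against 9.69, 9.58, 9.33 and 9.10 log2 in controls. The library labelled irradiated replicate 1 was the lowest sample and the other irradiated samples the highest, and without it Elovl5 rose by 1.19 log2 (SE 0.22, adjusted p = 0.0327; 0.29 and adjusted p = 0.818 with it).

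Of 9 genes of SREBP processing and degradation, 0 passed in limma with all arrays, where 1.56% of all genes fell and 0.115% rose. At an unadjusted p under 0.05, 2 were lower and 0 higher (16.1% and 3.60% of all genes). Without the library labelled irradiated replicate 1, 0 fell and 1 rose, where 3.06% of all genes fell and 1.58% rose. There 3 were lower and 1 higher at an unadjusted p under 0.05 (15.1% and 6.56% of all genes). Ube2g2, a ubiquitin-conjugating enzyme of the endoplasmic reticulum, was at 7.76, 8.87 and 9.06 log2 in irradiated samples, against 7.85, 8.07, 7.98 and 8.14 log2 in controls. Ube2g2 rose by 0.96 log2 without that library, in which it was below all controls (adjusted p = 0.0315; 0.55 and adjusted p = 0.377 with it).

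All 15 genes of sterol esterification, release and transport had fold changes below 0 in both comparisons, as had 55.0% and 56.4% of all genes. Their medians were -0.65 and -0.44 (-0.05 over all genes in both). At an unadjusted p under 0.05 in limma, 6 were lower with all arrays and 4 without that library (16.1% and 15.1% of all genes), and 0 higher. Besides Tmem97 only Nceh1 passed, and only without that library, where 3.06% of all genes fell and 1.58% rose. Nceh1, a hydrolase of cholesteryl ester in macrophages, was at 6.77, 9.77 and 10.22 log2 in irradiated samples, against 10.98, 11.17, 10.80 and 10.87 log2 in controls. It fell by 0.96 log2 when that library was left out (adjusted p = 0.0454; -2.03 and adjusted p = 0.199 with it). Of the 4 tested genes of the isoprenoid branch and the 6 further liver X receptor partners and targets, 0 passed in limma in either comparison. Over all genes 1.56% fell and 0.115% rose with all arrays, and 3.06% and 1.58% without that library. At an unadjusted p under 0.05, 0 of the 4 and 1 of the 6 were lower in each comparison, and 0 higher. That level was met by 16.1% lower and 3.60% higher of all genes with all arrays, and 15.1% and 6.56% without that library. The members with the highest mean of these lists were Dhdds (-0.11, adjusted p = 0.753; 0.02 without that library), which makes dolichol precursors, and Pltp (-0.91, adjusted p = 0.580; -0.33 without that library), a phospholipid transfer protein gene.

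**Figure D5:**
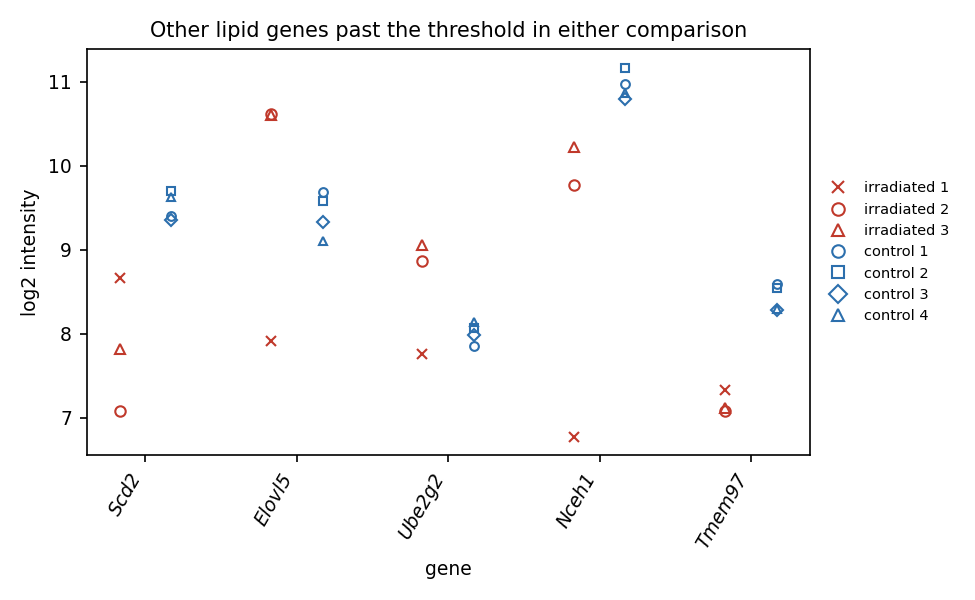
Log2 intensity (vertical axis) of Scd2, Elovl5, Ube2g2, Nceh1 and Tmem97 (horizontal axis), with the 3 irradiated samples in red left of the 4 controls in blue. In Tmem97 all irradiated samples sit between 7.08 and 7.33, below the controls at 8.28 to 8.59, whereas the library labelled irradiated replicate 1 stands away from the other irradiated samples in Elovl5, Ube2g2 and Nceh1.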

How the data were processed

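The authors deposited intensities for 24922 probe sets made by RMA, per the submitters' processing notes, on a linear scale (lowest value 3.99 to 4.44 per array, median 80.2 to 88.2); the array design, genome build and RMA version were not stated there or in the labels. Both deposited tables hold the same values (174454 of 174454 equal). The number of arrays, 7, limits the precision. Equal values in at least 2 arrays occurred in 6976 of 24922 probe sets (28.0%) and in 5 members.

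Log2 was taken, each symbol was represented by its brightest probe set, the dimmest 40% of symbols were removed, and lmFit and eBayes (trend) of limma 3.58.1 in R 4.3.3 were run on all 13053 genes with Benjamini-Hochberg adjustment. The script was tested on simulated data. The RefSeq table gave current names and chromosomes.

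The members and lists were chosen with earlier results of these data known, and sorted by role. All 29 members are named; full values are given for those past the threshold in either comparison and 12 others. Of other lists, members past the threshold or the one with the highest mean are named. Marker lists covered LC, keratinocytes, fibroblasts, endothelial cells, T cells, monocytes and macrophages, erythroid cells and sex-linked RNA. Of the 45 cell type markers found, 38 were tested in limma. With all arrays 0 passed, and 1 without irradiated replicate 1 (Itgax). Of 5 sex-linked genes 2 were tested (Xist, Ddx3y) and both passed; the other 3, too dim to test, were higher in every irradiated sample than in any control. The endothelial sum over 5 markers was 1129, 392 and 338 in irradiated samples and 348 to 389 in controls, and the T cell sum over 5 markers 909, 708 and 1666, and 491 to 753. Alternatives changed the filter, variance model, normalisation, probe set rule, offset, pairing, earlier record, arrays and threshold.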

Additional observations from a re-analysis of the deposited data

Results flagged for a closer look

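Dhcr7 had 1 control far from the others in relation to the range: control replicate 3 was at 7.18 log2 and control replicates 1, 2 and 4 were all at 7.24 log2. The gap divided by the range, 1.00, exceeds Dixon's 95% critical value for 4 samples. The whole range was 0.06 log2, and the other 3 values are identical in the deposited table. Of the 29 members 1 was found this way, and chance gives about 5%.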

How the results depend on the processing

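The synthesis median stayed below 0 under every alternative run, and its range with 1 array left out was -0.76 (without control replicate 3) to -0.36 (without control replicate 1). The regulator and uptake median was 0.05 with quantile normalisation, and with 1 array left out it ran from -0.27 to -0.10. The efflux median ran from -0.44 (without control replicate 1) to 0.05 (without irradiated replicate 1). The count of synthesis genes that fell, 1 with all arrays, was 0 with no filter, quantile normalisation, the replicate block, the earlier record as a term, controls 2 and 3 only, controls 2 and 3 against irradiated 2 and 3, or a threshold of 0.01; it was 2 with median centring or the lowest 60% left out, 3 at a threshold of 0.1 and 9 with array weights, and 0 to 4 with 1 array left out. The count that rose was 1 with array weights and 0 to 1 with 1 array left out. Over all genes, 204 fell and 15 rose. The counts lower and higher were 130 lower with no filter, 2645 and 831 with array weights, 0 and 0 with the replicate block, 1 and 0 with the earlier record as a term, 1 and 0 with controls 2 and 3 only, 0 and 1 with controls 2 and 3 against irradiated 2 and 3, 593 and 46 at a threshold of 0.1, and 18 and 0 at 0.01. With 1 array left out they ran from 2 to 399 lower and 0 to 206 higher. The causes were not tested, beyond fewer samples or genes in some fits.

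Nsdhl did not pass with no filter (adjusted p = 0.0578), quantile normalisation (0.0873), the replicate block (-1.12, 0.218), the earlier record as a term (0.168), controls 2 and 3 only (0.204) or controls 2 and 3 against irradiated 2 and 3 (0.0846), and its log2 fold change stayed between -1.38 and -0.94. Tmem97 passed in 10 of 20 settings and ranged from -1.33 to -1.07; it did not pass with quantile normalisation (0.0649), the replicate block (0.197), the earlier record as a term (0.155), controls 2 and 3 only (0.179) or controls 2 and 3 against irradiated 2 and 3 (0.084). Deviations from the group mean correlated at 0.0209, -0.0545 and 0.168 between same-numbered samples, and at -0.199 to 0.165 between differently numbered ones. Such deviations sum to 0 within a group, and 1 irradiated library lacks LC markers, so this check cannot decide on pairing. The numbers were not taken as pairs in the main fit.

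Some fold changes changed sign without passing in either fit, among them the synthesis genes Sqle (-0.55 with all arrays) and Sc4mol (-0.40). With quantile normalisation Abca1 was 0.05, Nr1h2 0.08, Scap 0.05 and Srebf1 0.05. With the replicate block Abca1 was 0.17. With array weights Acat2 was -0.09, Mylip -0.01 and Sc4mol 0.09. Controls 2 and 3 against irradiated 2 and 3 gave Acat2 -0.03, Sc4mol 0.17 and Sqle 0.02. With 1 array left out Abca1 ran from -0.83 to 0.18, Abcg1 from -0.65 to 0.16, Acat2 from -0.12 to 0.32 and Mvd from -0.23 to 0.01. Elovl5 ran from -0.16 to 1.19 there. Its value of 1.19, without irradiated replicate 1, did pass in limma (adjusted p = 0.0327).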
